A study of Rattus norvegicus with 4 samples.

Results

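Of 17934 long non-coding RNA (lncRNA) transcripts listed in cultured heart muscle cells of newborn rats, 35 stood higher in high glucose at both times that were sampled. They were chosen by their values: a mean of 20 or more reads over the 4 libraries, which 5038 transcripts reached, and a level at least 2-fold higher in high than in normal glucose at 24 h and again at 48 h. The level is FPKM, the reads scaled by transcript length and by the library total, and 0.5 was added to each FPKM before the ratio was taken. A transcript that a library did not list was taken as 0 there. The high glucose ratios below therefore describe the choice and are not tested.

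The high glucose groups were Sprague-Dawley cardiomyocytes, isolated from pups 1 to 2 days old and kept in M199 medium with 33 mmol/l glucose for 24 h or for 48 h. The normal glucose groups were cells of the same kind in 5 mmol/l glucose with 28 mmol/l mannitol, which evens out the osmolality, for the same times. All 4 groups had carnitine at 2 mM and creatine and taurine at 5 mM in the medium. The study used high glucose to model stress by oxidation and cell death by apoptosis. Each group is 1 library of total RNA, so no difference below has a replicate check and every interval covers counting error only. The labels do not say how many animals or cultures went into a library.

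LncRNAs are transcribed and often spliced like messenger RNAs but carry no long reading frame. Some act at the locus where they are made, by recruiting chromatin regulators or by the act of their transcription, and others act elsewhere as scaffolds or as decoys for proteins and microRNAs. Many are made at low levels and in few cell types, and several are studied in the heart for roles in growth, stress and cell death. Of the 35 transcripts, 32 carried identifiers of NONCODE, a database of non-coding RNAs, 1 an Ensembl identifier and 2 identifiers of transcripts assembled from reads. The files pair none of them with a gene name, none matched the rat gene table at hand, and positions are as the files give them, on build rn6 per the submitters' processing notes.

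The lncRNA counts summed to between 846946 and 1075428 per library, and the library totals behind the FPKM values, recovered from counts, lengths and FPKM, lay between about 11900000 and 15700000 reads. The lncRNA share of that total was 6.36% in high glucose at 48 h, the lowest of the 4, against 6.83% to 7.24% in the others. Over all 5038 transcripts the median log2 ratio of high over normal glucose was -0.04 at 24 h and -0.18 at 48 h, and that of the 35 was 1.99 at 24 h and 2.07 at 48 h. Protein-coding genes were not analysed here, so the cardiomyocyte label could not be checked against muscle genes, and fewer cells of a type cannot be told apart from less RNA per cell.

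At 24 h, 3.31% of the 5038 transcripts were at least 2-fold higher in high glucose, at 48 h 4.19%, and at both times 0.695%, the 35 described here. The opposite pattern, at least 2-fold lower at both times, was held by 40 transcripts or 0.794%, so nothing is read from the number 35 itself. Summed over the 35, reads numbered 7580 in high glucose and 902 in normal glucose at 24 h. At 48 h they numbered 5979 in high glucose and 1083 in normal glucose. They made up 0.709% of the lncRNA reads in high glucose and 0.107% in normal glucose at 24 h, and 0.661% and 0.101% at 48 h. The median ratio of the 35 was 3.98-fold at 24 h and 4.2-fold at 48 h, on the scale of FPKM + 0.5. At least 4-fold were 17 of them at 24 h, 18 at 48 h and 13 at both times, and at least 8-fold were 11, 12 and 7. The counting intervals of all 35 ratios lay above 1 at both times, which the choice makes likely, and those of 19 lay at or above 2 at both times.

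**Figure D1:**
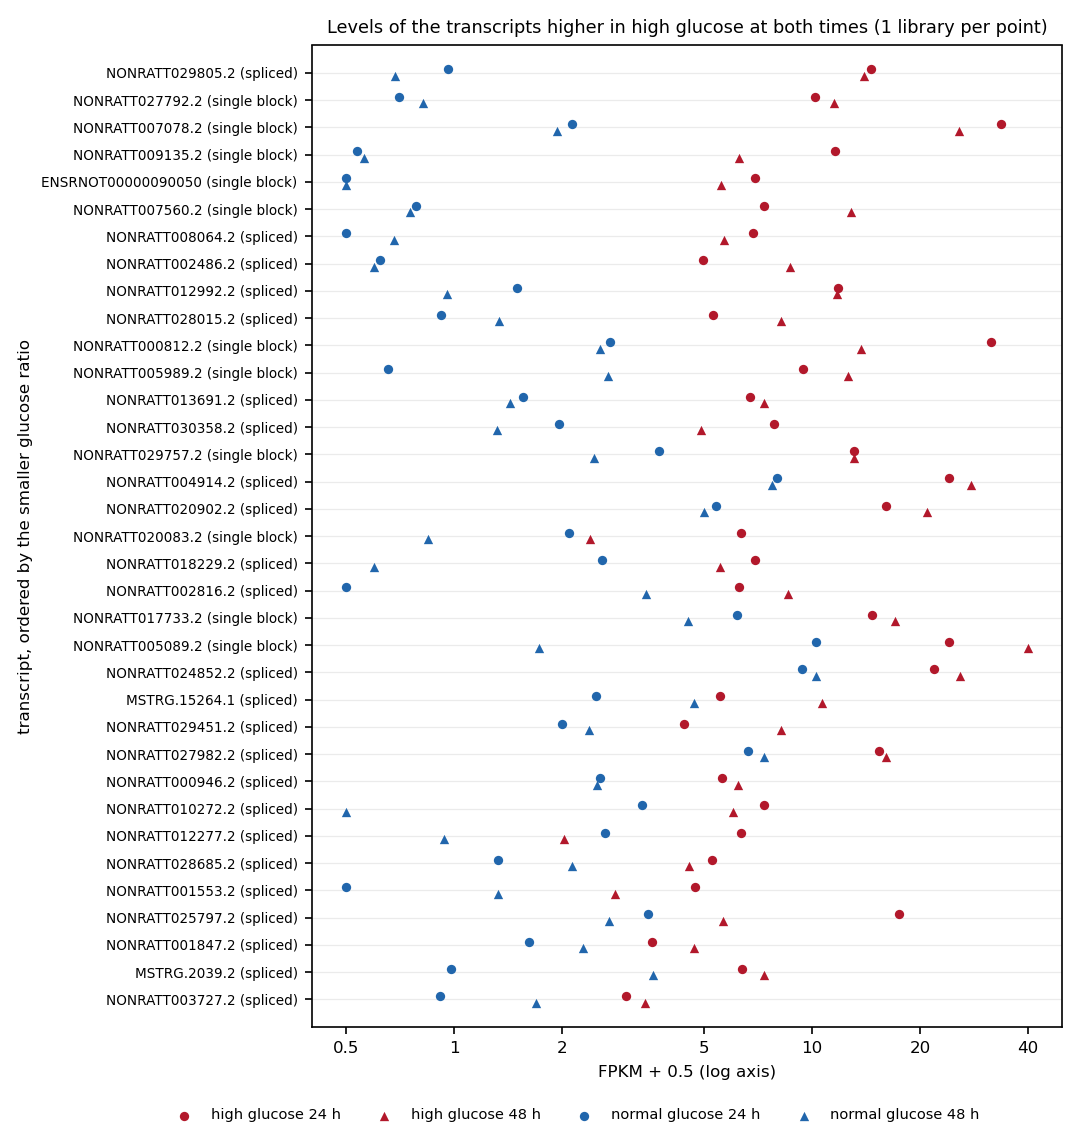
FPKM + 0.5 on a log axis for each of the 35 transcripts, with high glucose in red, normal glucose in blue, circles for 24 h and triangles for 48 h; each point is 1 library. The rows run down the page from the largest to the smallest of the lower glucose ratio, and a point at 0.5 stands for 0 FPKM. In 34 of the 35 rows both red points lie right of both blue points.

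**Figure D2:**
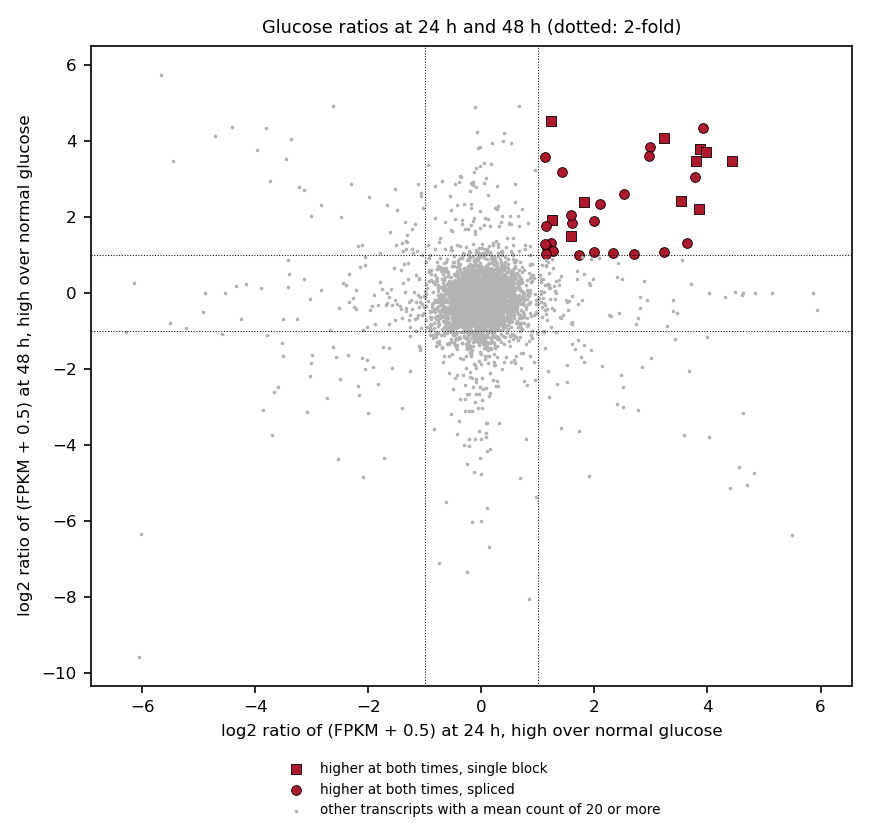
Log2 ratio of FPKM + 0.5, high over normal glucose, at 24 h (horizontal) and 48 h (vertical) for 5038 transcripts with a mean count of 20 or more. The 35 chosen transcripts fill the upper right corner by construction, and squares mark the 11 that are a single block.

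A first set of 5 transcripts was near absent from normal glucose, with at most 3 reads in each normal glucose library. Over all 5038 transcripts 16, or 0.318%, had so few reads in both. NONRATT009135.2, 1 unspliced block of 2295 nt on chromosome 13 (111574581 to 111576875), had 398 reads in high glucose and 1 read in normal glucose at 24 h, and 187 reads in high glucose and 2 reads in normal glucose at 48 h. Its levels were 11.1 FPKM in high glucose against 0.0367 FPKM in normal glucose at 24 h, and 5.73 FPKM against 0.0587 FPKM at 48 h. Both high glucose libraries thus were far above both normal glucose libraries. By counts it was 302-fold higher at 24 h (95% counting interval 53.9 to 11958) and 97.6-fold higher at 48 h, with a lower interval end of 26.7.

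NONRATT029805.2 (chromosome 9, 16639018 to 16639637, spliced, 367 nt) ranked first by the smaller of its ratios. It had 81 and 70 reads in high glucose at 24 h and 48 h, against 2 and 1 reads in normal glucose, or 14.1 and 13.4 FPKM against 0.459 and 0.183 FPKM. The ratio was 30.7-fold at 24 h (8.24 to 258) and 73.1-fold at 48 h (12.7 to 2928). NONRATT027792.2, unspliced and 422 nt long (chromosome 8, 70374475 to 70374896), had 64 and 66 reads in high glucose against 1 and 2 in normal glucose, 48.6-fold at 24 h (8.41 to 1948) and 34.5-fold at 48 h (9.17 to 291). NONRATT002486.2 (chromosome 1, 87933539 to 87936490, spliced, 690 nt) had 48 and 80 reads in high glucose against 1 read in each normal glucose library, 36.4-fold at 24 h (6.23 to 1468) and 83.5-fold at 48 h (14.6 to 3341). In these 3 the high glucose libraries were clearly parted from the normal ones, while the size of the fold rests on 1 or 2 reads in its lower part. ENSRNOT00000090050, the Ensembl transcript and a single block of 528 nt (chromosome 20, 3403204 to 3403731), had 53 and 38 reads in high glucose and was not listed in either normal glucose library. Against a floor of 3 reads per library it stood 13.4-fold higher at 24 h and 13.2-fold higher at 48 h. The lower ends of its counting intervals were 10.5 at 24 h and 10.2 at 48 h.

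Among the 13 with ratios of 4-fold or more at both times on the scale of FPKM + 0.5, 5 had more than 3 reads in every library. Of these 5, 3 were single blocks and 2 spliced, and their folds below are by reads unless stated. By reads NONRATT030358.2, also with more than 3 reads in every library, passed 4-fold too. It was 5.01-fold at 24 h (2.56 to 10.9) and 5.37-fold at 48 h (2.36 to 14.3), but under 4-fold with 0.5 added. NONRATT007078.2 (chromosome 11, 71547851 to 71550895, 1 block, 3045 nt) had the most reads of the 35, with 1578 in high glucose and 59 in normal glucose at 24 h, and 1093 in high glucose and 65 in normal glucose at 48 h. These are 33.1 FPKM against 1.63 FPKM at 24 h and 25.2 FPKM against 1.44 FPKM at 48 h, 20.3-fold at 24 h (15.6 to 26.8) and 17.6-fold at 48 h (13.7 to 22.9). It was detected in normal glucose, but at a small part of its high glucose level. NONRATT000812.2 (chromosome 1, 137312744 to 137315273, 1 block, 2530 nt) stood at 31.1 FPKM in high glucose and 2.23 FPKM in normal glucose at 24 h, and at 13.2 FPKM and 2.05 FPKM at 48 h. Its ratio was 13.9-fold at 24 h (10.9 to 18.1) and 6.43-fold at 48 h (5.04 to 8.29), intervals that do not meet, with the normal glucose level nearly even between the times. NONRATT012992.2 (chromosome 17, 55230298 to 55231561), a spliced transcript of 1179 nt on a span of 1264 bases, stood at 11.3 and 11.2 FPKM in high glucose against 1.00 and 0.457 FPKM in normal glucose. The high glucose libraries were level with each other, and the ratio was 11.3-fold at 24 h (6.57 to 21.0) and 24.5-fold at 48 h (12.2 to 57.7). The spliced NONRATT013691.2 (chromosome 18, 15868124 to 15873229, 794 nt) stood at 6.19 and 6.82 FPKM in high glucose against 1.06 and 0.933 FPKM in normal glucose, 5.84-fold at 24 h (3.01 to 12.7) and 7.31-fold at 48 h (3.87 to 15.3).

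NONRATT007560.2, the last of the 5, unspliced and 2410 nt long (chromosome 12, 40953589 to 40955998), needs its counts beside its FPKM. It had 159 reads in high glucose and 8 in normal glucose at 24 h, and 423 in high glucose and 9 in normal glucose at 48 h. The deposited levels were 6.83 FPKM in high glucose and 0.283 FPKM in normal glucose at 24 h, and 12.3 FPKM and 0.251 FPKM at 48 h. The value of 6.83 FPKM in high glucose at 24 h is 62.1% above the 4.21 FPKM that its reads, length and library total give, and the other 3 libraries agree within 1.29%. Its 24 h ratio was 24.1-fold by deposited FPKM and 15.1-fold by reads (7.47 to 35.5), and at 48 h it was 49.1-fold (25.6 to 108). It meets the rule either way. No other of the 35 had such a gap between count and FPKM.

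A further 8 transcripts had at most 3 reads in 1 of the normal glucose libraries and more in the other. NONRATT008064.2 (chromosome 12, 47433356 to 47438930, spliced, 1491 nt) had 148 and 110 reads in high glucose at 24 h and 48 h, against 0 and 4 reads in normal glucose. It stood 37.4-fold above a floor of 3 reads at 24 h (lower interval end 30.1) and was 28.7-fold higher at 48 h (10.9 to 107). NONRATT028015.2 (chromosome 8, 115583211 to 115587186, spliced, 402 nt) had 30 and 44 reads in high glucose against 2 and 5 in normal glucose, 11.4-fold at 24 h (2.89 to 98.3) and 9.19-fold at 48 h (3.65 to 29.7). Both were low in normal glucose at either time. The other 6 were low in normal glucose at a single time. NONRATT005989.2, unspliced and 553 nt long (chromosome 10, 87116826 to 87117378), had 77 and 95 reads in high glucose against 1 and 18 in normal glucose, 58.4-fold at 24 h (10.2 to 2337) and 5.51-fold at 48 h (3.31 to 9.70). NONRATT002816.2 (chromosome 1, 142194050 to 142201199, spliced, 435 nt) had 39 and 50 reads against 0 and 19. At 24 h it stood 9.86-fold above a floor of 3 reads (lower interval end 7.65) and at 48 h it was 2.75-fold higher (1.59 to 4.94). NONRATT001553.2 and the assembled transcript MSTRG.2039.2 had the same form, with 64 and 32 reads at 24 h in high glucose against 0 and 2 in normal glucose, and 32 and 34 reads at 48 h against 12 and 16. The reverse form was held by NONRATT018229.2, with 69 and 49 reads in high glucose against 17 and 1 in normal glucose, and NONRATT010272.2, with 79 and 58 reads against 25 and 0. That the normal glucose libraries of these 6 differ from each other follows from how they were grouped. Their high glucose reads at 48 h were between 0.55 and 1.41 times those at 24 h per library total.

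The remaining 22 transcripts, NONRATT007078.2, NONRATT000812.2, NONRATT012992.2, NONRATT013691.2 and NONRATT007560.2 among them, had more than 3 reads in every library. NONRATT005089.2, a single block of 715 nt (chromosome 10, 105564510 to 105565224), had the highest mean level of the 35, at 18.5 FPKM, and stood 527th among the 5038. It stood at 23.6 FPKM in high glucose and 9.77 FPKM in normal glucose at 24 h, and at 39.5 FPKM in high glucose and 1.22 FPKM in normal glucose at 48 h. High glucose was above normal glucose at both times, with a much wider gap at 48 h: 32.3-fold (18.7 to 61.2), against 2.41-fold at 24 h (1.88 to 3.13).

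For the spliced transcripts of highest mean FPKM, named in this paragraph, the counting intervals at 24 h and 48 h overlapped. Their ratios were smaller than in the near-absent set above. That set was drawn by its few normal glucose reads, so its ratios are large by construction and nothing is read from this difference. NONRATT029805.2, the next spliced transcript by mean FPKM, belongs to that near-absent set, and the group named here was ended before it. NONRATT004914.2 (chromosome 10, 89352835 to 89356562, 551 nt) stood at 23.7 and 27.3 FPKM in high glucose at 24 h and 48 h, against 7.49 and 7.21 FPKM in normal glucose, 3.16-fold at 24 h (2.30 to 4.41) and 3.79-fold at 48 h (2.83 to 5.14). NONRATT024852.2 (chromosome 6, 26214078 to 26217150, 456 nt) stood at 21.4 and 25.3 FPKM in high glucose, against 8.86 and 9.74 FPKM in normal glucose, 2.42-fold (1.74 to 3.42) and 2.59-fold (1.94 to 3.51). In both, the libraries of 1 medium lay within 1.18-fold of each other across the times. NONRATT020902.2 and NONRATT027982.2 belong with them, at 15.6 and 14.9 FPKM in high glucose against 4.89 and 6.12 FPKM in normal glucose at 24 h. Their 48 h levels were 20.4 and 15.6 FPKM in high glucose against 4.49 and 6.82 FPKM in normal glucose.

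Further single blocks with reads in every library were NONRATT029757.2, NONRATT017733.2 and NONRATT020083.2. NONRATT029757.2 (2132 nt) stood at 12.6 FPKM in high glucose at both times, against 3.24 and 1.96 FPKM in normal glucose. NONRATT017733.2 (387 nt) stood at 14.2 and 16.5 FPKM in high glucose, against 5.66 and 4.0 FPKM in normal glucose. By reads, the ratio of both was wider at 48 h, 6.42-fold (4.90 to 8.54) against 3.89-fold at 24 h (3.06 to 4.99) and 4.13-fold (2.59 to 6.84) against 2.51-fold (1.6 to 4.06), and the intervals of the 2 times overlapped in each. NONRATT020083.2 stood at 5.81 and 1.89 FPKM in high glucose against 1.59 and 0.343 FPKM in normal glucose, and its 48 h ratio of 5.52-fold (2.43 to 14.7) rests on 37 reads in high glucose and 7 in normal glucose. The longest of the 35, the assembled MSTRG.15264.1 (chromosome 4, 99824316 to 99830690, spliced, 4027 nt), stood at 5.03 and 10.1 FPKM in high glucose, against 1.99 and 4.16 FPKM in normal glucose, 2.53-fold (2.01 to 3.22) and 2.43-fold (2.09 to 2.83). The spliced NONRATT030358.2, NONRATT029451.2, NONRATT000946.2 and NONRATT028685.2 lay between 3.89 and 7.67 FPKM in high glucose and between 0.817 and 2.05 FPKM in normal glucose, over both times.

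Just inside the threshold by the smaller log2 ratio were NONRATT001847.2 and MSTRG.2039.2, both at 1.04, and NONRATT003727.2 at 1.01, all set by their 48 h value. NONRATT001847.2 had 29 and 36 reads in high glucose against 8 and 16 in normal glucose, and NONRATT003727.2 had 40 and 42 against 5 and 18. Just outside were NONRATT013204.2 at 0.96 and NONRATT003143.2 at 0.94, set by 48 h, and NONRATT009557.2 at 0.94, set by 24 h. NONRATT009557.2 had 213 reads in high glucose and 79 in normal glucose at 24 h, and 141 in high glucose and 4 in normal glucose at 48 h.

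In size, the 35 were shorter than the transcripts they were drawn from, with a median length of 715 nt against 1019 nt over the 5038. Lengths under 500 nt made up 22.9% of the 35 and 10.1% of the 5038, and lengths of 1000 to 1999 nt made up 14.3% and 33.7%. At 2000 nt or more the shares were 22.9% and 17.5%, so the difference lay in the short and middle lengths. The 40 transcripts lower at both times were also shorter than the 5038, with a median of 866.5 nt, so both sets had a shorter median. The shortest was MSTRG.2039.2 at 349 nt. With 0.1 added in place of 0.5, the rule took 48 transcripts with a median of 788 nt. Among transcripts with a mean of 50 or more reads the median was 1491 nt for the 17 chosen, against 1325 nt for the 2872 they were drawn from. At that depth the chosen transcripts were not the shorter ones.

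**Figure D3:**
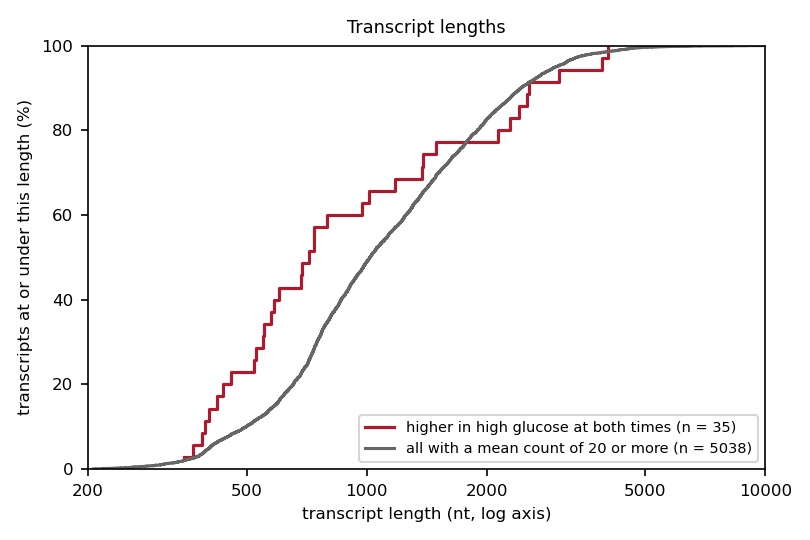
Share of transcripts, in percent, at or under each length (nt, log axis, drawn up to 10000 nt) for the 35 chosen transcripts in red and for all 5038 with a mean count of 20 or more in grey. The red line lies above the grey between 500 and 1000 nt, and at 2000 nt it lies below it.

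By structure, 24 of the 35 were spliced (68.6%, against 50.4% of the 5038) and 11 were a single block, meaning that the span on the genome equals the transcript length. Of the 40 transcripts lower at both times 62.5% were spliced, also above the 50.4% of the 5038. As a description of the choice, the single blocks had the larger ratios: their median ratio was 11.6-fold at 24 h and 11.1-fold at 48 h, against 3.62-fold and 2.94-fold for the spliced. Single blocks had a median length of 1374 nt and 5 of the 11 reached 2000 nt, while the spliced had a median of 688 nt and a median span of 4460 bases. The widest span was that of NONRATT010272.2, 738 nt spread over 52863 bases on chromosome 15. Mean levels per length were like those of other transcripts, with a median of 4.19 FPKM for the 35 and 4.51 FPKM for the 5038. The highest member mean, 18.5 FPKM, lay far below the 3101 FPKM of the most abundant transcript. Whether the spans lie in introns, exons or antisense to protein-coding genes was not analysed here.

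The 35 lay at 35 separate loci on 15 of the 21 chromosomes with measured transcripts. Chromosome 1 held 8 (22.9%, against 11.8% of the 5038), chromosomes 8 and 9 held 4 each (11.4%, against 5.48% and 4.09%), and no other held more than 3. The closest pair, NONRATT028685.2 and NONRATT027792.2 on chromosome 8, were 0.924 Mb apart. Within 50 kb of 17 of the 35 lay 27 transcripts with a mean of 20 or more reads that do not overlap them, and 0 of these 27 were at least 2-fold higher in high glucose at both times, a share that is 0.695% over all 5038. Their median log2 ratio was -0.11 at 24 h and -0.44 at 48 h, and 85.2% of them stayed within 2-fold at both times, as did 84.7% of all 5038. The next transcript to NONRATT029805.2, NONRATT029806.2 at a distance of 931 bases, had log2 ratios of 0.15 and -0.54, against 3.93 and 4.35 for NONRATT029805.2.

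Overlap with another listed transcript was seen for 14 of the 35, while 21 (60%, against 66.0% of the 5038) overlapped none. A single block was 1 of the 14. Of the 26 transcripts that overlap these 14, 1 was at least 2-fold higher at both times (3.85%, against 0.695% of the 5038) and 16 stayed within 2-fold at both (61.5%, against 84.7%). The 26 include transcripts with a mean under 20 reads. Of the 14 with 20 or more, 0 were higher at both times and 9 stayed within 2-fold. The median log2 ratio of the 26 was -0.06 at 24 h and 0.09 at 48 h. When the reads of each member and its overlapping transcripts were summed, 4 of the 14 sums were at least 2-fold higher at both times, with a median of 1.53-fold at 24 h and 2.04-fold at 48 h. The counting intervals of 8 of the 14 sums lay above 1 at both times. The sources used here do not say how reads were divided between overlapping transcripts, and the files give no strand, so reads of overlapping transcripts cannot be told apart.

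For ENSRNOT00000090050 the sum did not differ between the media beyond counting error. NONRATT017519.2, a single block of 897 nt, starts 1 base after it on chromosome 20 and contains the rest of its span. That transcript had 75 and 39 reads in high glucose against 103 and 90 in normal glucose, lower in high glucose at both times, 0.552 times at 24 h (0.405 to 0.751) and 0.453 times at 48 h (0.303 to 0.666). Summed, the 2 transcripts had 128 and 77 reads in high glucose against 103 and 90 in normal glucose, 0.943 times at 24 h (0.722 to 1.23) and 0.893 times at 48 h (0.65 to 1.22). The Ensembl transcript held 41.4% and 49.4% of these reads in high glucose at 24 h and 48 h. In normal glucose it held 0 of 103 reads at 24 h and 0 of 90 at 48 h. The floor of 3 reads would be a share of 2.91% and 3.33% of these sums, which is not an exact interval end.

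At the locus of NONRATT025797.2 (chromosome 7, 54233690 to 54237880, spliced, 2552 nt) the sum was also far less apart than the member. NONRATT025797.2 had 678 and 186 reads in high glucose against 90 and 84 in normal glucose. NONRATT025796.2, which covers its whole span, had 268 and 198 reads in high glucose against 741 and 90 in normal glucose, and NONRATT025794.2 carried most reads in every library, with 1682 and 1515 against 1668 and 1758. The sum of the 4 transcripts there was 0.845 times at 24 h (0.800 to 0.892) and 1.03 times at 48 h (0.963 to 1.09). NONRATT025792.2, the last of the 4, had 155 reads in high glucose at 24 h and was not listed in the other 3 libraries.

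At some other loci the member carried the sum with it. NONRATT004914.2 and NONRATT004915.2, which lies almost wholly in its span, were higher together. NONRATT004915.2 had 33 and 17 reads in high glucose against 4 and 1 in normal glucose, and the summed reads were 3.39-fold at 24 h (2.51 to 4.66) and 4.02-fold at 48 h (3.01 to 5.43). At NONRATT008064.2 the sum was 4.72-fold (3.22 to 7.14) and 2.79-fold (2.05 to 3.84), while its 3 partners together were 1.10-fold (0.682 to 1.80) and 0.870 times (0.573 to 1.32). The sum at NONRATT013691.2 was 2.85-fold (1.86 to 4.49) and 3.45-fold (2.27 to 5.37), and that at NONRATT020902.2 was 2.03-fold (1.55 to 2.69) and 2.58-fold (2.00 to 3.36). At NONRATT012277.2 and NONRATT003727.2 the sum turned between the times. For NONRATT012277.2 it was 1.37-fold at 24 h (1.09 to 1.73) and 0.399 times at 48 h (0.302 to 0.522). Its partner NONRATT012276.2 had 32 reads in high glucose against 177 in normal glucose at 48 h. For NONRATT003727.2 it was 0.636 times at 24 h (0.481 to 0.838) and 2.16-fold at 48 h (1.61 to 2.93).

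**Figure D4:**
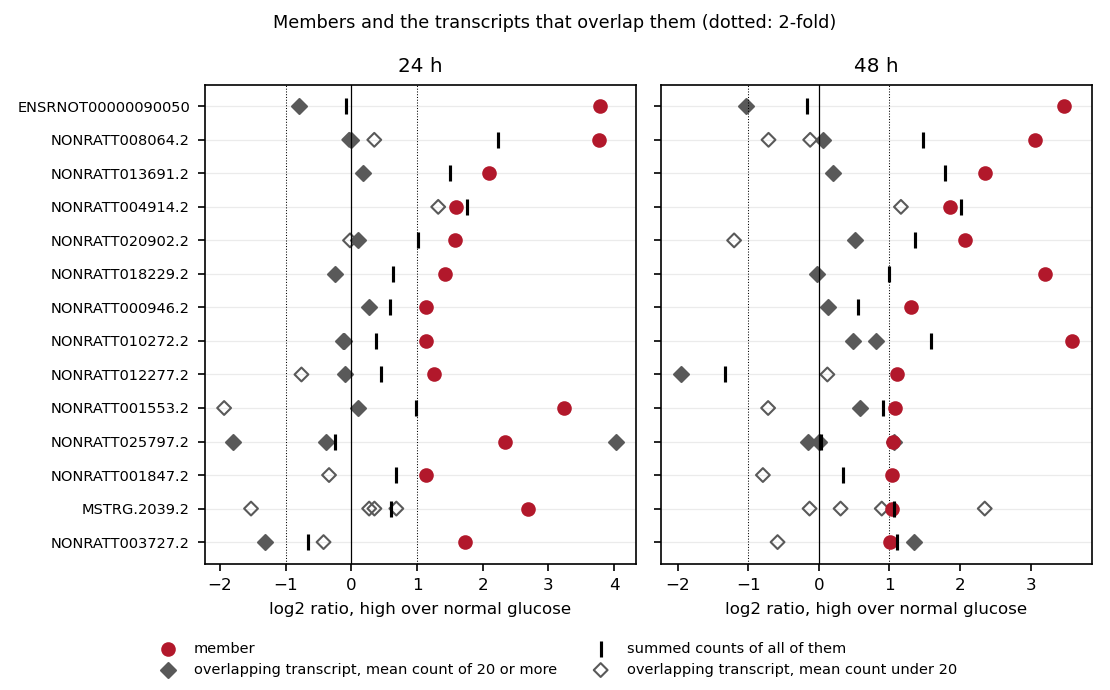
Log2 ratio of high over normal glucose at 24 h (left) and 48 h (right) for the 14 transcripts that overlap others: red circles are the chosen transcripts and diamonds the overlapping ones, both from FPKM + 0.5, and black bars the ratio of the summed reads per library total, with nothing added. Filled diamonds have a mean count of 20 or more and open ones fewer. The diamonds lie on both sides of 0, and the black bar of ENSRNOT00000090050 lies near 0 at both times while its red circle lies above 3.

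Time was not used in the choice, though the libraries are the same. In high glucose 31 of the 35 lay within 2-fold between 48 h and 24 h, 4 were at least 2-fold lower at 48 h, where 7.68% of the 5038 were, and 0 were at least 2-fold higher, where 3.73% of the 5038 were. In normal glucose 26 lay within 2-fold, 4 were at least 2-fold higher at 48 h and 5 at least 2-fold lower, where 2.86% and 3.53% of the 5038 were. The median log2 ratio of 48 h over 24 h was 0.13 in high glucose and -0.05 in normal glucose for the 35, and -0.11 and 0.03 for the 5038.

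The 4 that were lower at 48 h in high glucose took different forms. NONRATT012277.2 (chromosome 17, 9685876 to 9692162, spliced, 1382 nt) was lower at 48 h in both media, with 30 reads at 48 h and 126 at 24 h in high glucose, and 9 and 35 in normal glucose. NONRATT020083.2 (1374 nt, chromosome 3, 173962127 to 173963500) did the same, with 37 and 125 reads in high glucose and 7 and 26 in normal glucose. Their inverse ratios, 24 h over 48 h, were 3.82-fold (2.55 to 5.89) and 3.07-fold (2.11 to 4.56) in high glucose and 4.86-fold (2.29 to 11.5) and 4.65-fold (1.96 to 12.7) in normal glucose. In both transcripts high glucose stayed above normal glucose while the levels in either medium were lower at 48 h. NONRATT025797.2 and NONRATT000812.2 were lower at 48 h mainly in high glucose, 3.31-fold (2.81 to 3.92) and 2.36-fold (2.12 to 2.63) by inverse ratio. In normal glucose their inverse ratios were 1.34-fold (0.984 to 1.83) and 1.09-fold (0.772 to 1.53).

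MSTRG.15264.1 was the transcript with the largest time ratio in high glucose on the scale with 0.5 added, at a log2 value of 0.94, and it was higher at 48 h in both media by counts, 2.01-fold in high glucose (1.75 to 2.32) and 2.1-fold in normal glucose (1.65 to 2.68). NONRATT029451.2 was 1.97-fold higher at 48 h in high glucose (1.17 to 3.40). For NONRATT007560.2 the gap between count and FPKM at 24 h matters here: 48 h over 24 h in high glucose was 1.81-fold by deposited FPKM and 2.93-fold by reads (2.43 to 3.54). By reads, with nothing added, NONRATT007560.2 and MSTRG.15264.1 were thus at least 2-fold higher at 48 h in high glucose, 2 of the 35 against 0 on the scale of FPKM + 0.5. The share of 3.73% of the 5038 is on the scale of FPKM + 0.5, so it does not match the count by reads.

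In normal glucose the largest changes with time were mostly those of transcripts with few reads in 1 of its libraries. NONRATT002816.2, NONRATT005989.2 and MSTRG.2039.2 were higher at 48 h, and NONRATT010272.2, NONRATT005089.2 and NONRATT018229.2 were lower. NONRATT005989.2 was 14.4-fold higher at 48 h (2.27 to 600), with 1 read at 24 h. NONRATT005089.2, with 13 reads at 48 h and 83 at 24 h, was lower by an inverse ratio of 7.99-fold (4.42 to 15.6), while in high glucose it was 1.68-fold higher at 48 h (1.43 to 1.96). Its quotient of the 48 h and 24 h glucose ratios was the largest of the 35, at a log2 value of 3.31, and the smallest was that of NONRATT002816.2, at -2.32. Over all 35 the ratio was wider at 48 h in 17 and narrower in 18, and in 26 both ratios lay within 2-fold of each other. Among the 5038 transcripts the ratio was larger at 48 h in 1931 and smaller in 3107. Both ratios lay within 2-fold of each other in 4277 of the 5038, a higher share than among the 35.

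**Figure D5:**
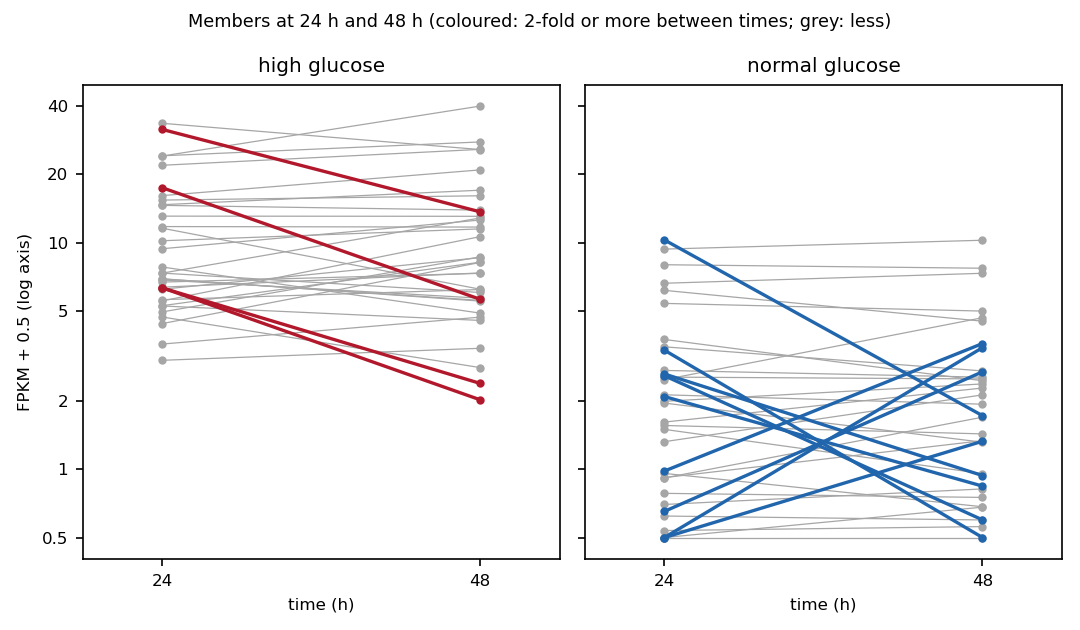
FPKM + 0.5 (log axis) of each of the 35 transcripts at 24 h and 48 h in high glucose (left) and normal glucose (right), with 1 line per transcript; coloured lines differ by 2-fold or more between the times and grey lines by less. In high glucose 4 lines are coloured, all downward, and in normal glucose 9 are, 4 upward and 5 downward.

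Comparisons across times, such as high glucose at 24 h against normal glucose at 48 h, were not named in the choice but are not independent of it. The log2 ratios of a transcript across times sum to the same value as its ratios in the choice. High counts of the 35 below therefore follow largely from the choice and are no further evidence. High glucose at 24 h was at least 2-fold above normal glucose at 48 h for 29 of the 35 (3.29% of the 5038), and high glucose at 48 h at least 2-fold above normal glucose at 24 h for 31 (3.87%). For 25 of the 35 all 4 pairs were at least 2-fold apart (0.496% of the 5038, all of them among the 35 by the rule). Both high glucose libraries lay above both normal glucose libraries in FPKM for 34 of the 35, where 11.7% of the 5038 did. The exception was NONRATT012277.2, with 1.53 FPKM in high glucose at 48 h against 2.13 FPKM in normal glucose at 24 h.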

How the data were processed

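Per the labels' protocols, total RNA was made into stranded libraries and sequenced on an Illumina HiSeq instrument. The submitters' processing notes name TopHat2 2.1.0, Cufflinks and the builds rn6 and Rnor_6.0. The sources used here do not name the tool that counted the reads, whether it used strand, or the annotation. The authors deposited raw counts per lncRNA transcript, for transcripts with at least 1 read, and FPKM values beside them, per the file headers. Samples were grouped by title, with 1 library in each of 4 groups, so no test was run.

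Lengths come from the 24 h normal glucose table; those of 4 members were recovered from count and FPKM. Library totals are the median of count divided by length and FPKM. Counts and FPKM gave the same total to within 1%, apart from 2 transcripts of the 24 h libraries. Folds are ratios of counts per library total, with exact 95% Clopper-Pearson intervals conditional on the sum of both counts. No molecular identifiers are described, so these intervals, and the floor of 3 reads used for a count of 0, cover counting error alone. Overlap means at least 1 shared base of span. Members were named in full by rule: the first 12 by the smaller ratio, the 3 examples of the choice, the 5 of highest mean FPKM, those without NONCODE identifiers, the extremes of length, span, time ratio and quotient, and the 3 on either side of the threshold. This gave 26; the other 9 and the overlapping transcripts were named after their values were seen. The members and lists were chosen with earlier results of these data known. The scripts were tested on simulated data and used Python 3.11.15, scipy 1.17.1 and, for TMM factors, edgeR 4.0.16. No sequence is shown, as no rn6 genome was used here.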

Additional observations from a re-analysis of the deposited data

Results flagged for a closer look

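With 1 library per group, a difference was noted where the same contrast went in opposite directions and both counting intervals excluded an even ratio. None of these differences was tested. Among the 35 transcripts, NONRATT005089.2 was higher at 48 h than at 24 h in high glucose (log2 0.73) and lower in normal glucose (-2.58), a difference of 3.31. NONRATT001553.2 went the other way, with -0.74 in high glucose and 1.41 in normal glucose, a difference of -2.15. Its reads in normal glucose were 0 at 24 h and 12 at 48 h. Summed with its 2 overlapping transcripts, reads were lower at 48 h in both media. The sums were 97 and 56 in high glucose and 37 and 31 in normal glucose, at 24 h and 48 h. Their glucose ratios were 1.99-fold (1.35 to 2.99) and 1.89-fold (1.20 to 3.03).

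Of the transcripts that overlap members, NONRATT012276.2 had time ratios of -0.88 in high glucose and 0.99 in normal glucose, a difference of -1.86. NONRATT025796.2 was higher in high glucose at 48 h (log2 1.06) and lower at 24 h (-1.80), a difference of 2.86. NONRATT003729.2 was likewise higher in high glucose at 48 h (1.34) and lower at 24 h (-1.31), a difference of 2.65, which is also the difference of its time ratios, 0.96 in high glucose and -1.69 in normal glucose.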

How the results depend on the processing

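The rule took 35 transcripts as chosen. It took 26 with 1 added to FPKM, losing 9, the 3 just inside the threshold among them (log2 at 48 h of 0.90, 0.94 and 0.83), and 17 with a mean of 50 or more reads, 66 without a minimum, 16 at 3-fold, 13 at 4-fold and 19 where the lower interval end had to reach 2-fold. TMM factors, median-of-ratios size factors and libraries rescaled to the same lncRNA sum gave 41 each, with all 35 among them, and moved the median log2 ratio of the 5038 at 48 h from -0.18 to between -0.02 and -0.01 and that of the 35 from 2.07 to between 2.24 and 2.26. Summing per locus gave 26 loci, 24 of which hold a member. The spliced numbered 15 of the 26 transcripts chosen with 1 added to FPKM (57.7%, against 50.4% of the 5038). They numbered 10 with 50 or more reads (58.8%, against 44.6% of those drawn from) and 46 without a minimum (69.7%, against 55.2%). Those alone at their locus numbered 12 (70.6%, against 68.7%) and 41 (62.1%, against 69.2%) in the last 2 cases. Members at least 2-fold higher at 48 h in high glucose numbered 2 with TMM or size factors and 1 with the same sum, against 0. In normal glucose 7 were higher at 48 h with 0.1 added, against 4. These counts of time changes have no share of the 5038 at the same setting beside them. Of 260 recomputed glucose ratios of the 26 named members, 40 lay outside an interval set for the ratio of FPKM + 0.5. That interval is not the one by reads printed with the folds above, so the 40 cannot be read against the printed intervals. Of the 260 ratios, 7 fell under 2-fold. None changed direction, but these settings could not have shown a reversal, so nothing is read from that. All of these ratios were chosen at 2-fold or more. Adding another value to both FPKM cannot reverse a ratio, and the rescalings moved the ratios only slightly. No paired analysis was possible because each group has 1 library. Depth limits the folds of the 5 members with at most 3 reads in both normal glucose libraries, whose intervals span more than an order of magnitude. It limits in the same way, at 1 time each, the folds of the 8 members with so few reads in only 1 of these libraries. An example is NONRATT005989.2 at 24 h (10.2 to 2337).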
